A study of Mus musculus with 2 samples.

Results

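The genes described here build the apical and basolateral domains of epithelial cells and sort proteins between them. They are Crb3, Pard3, Pard6b, Prkci, Llgl1, Llgl2, Scrib and Dlg1, of the Crumbs, Par and Scribble complexes, and the epithelial sorting genes Ap1m2 and Rab25. All non-control probes that carried these names, or whose accession now belongs to one of these genes, were taken, which gave 19 probes of 10 genes among 41168 probes on the array. Gene expression had been measured on 1 Agilent 1-colour mouse array for each of 2 lines, 24 h after doxycycline. Both lines came from N31, a neural progenitor line of strain 129/Ola made from induced pluripotent stem cells, which in turn came from the line NSEB5-2C. Doxycycline makes N31 cells express Oct3/4, Sox2, Klf4 and c-Myc, and both arrays are of cells so treated. The lines differ in what a CAG-driven Tol2 transposon adds, EGFP, a fluorescent protein that serves as the control, or Pax6, a transcription factor of the eye and forebrain. The labels name no further cultures or clones, so each line is 1 sample, and no test between the lines and no p-value is possible.

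The polarity complexes work against each other at the cell cortex. The Crumbs complex (Crb3 with its adaptors Pals1 and Patj) and the Par complex (Pard3, Pard6 and atypical protein kinase C) mark the apical side and the tight junction. The Scribble complex (Scrib, Dlg1 and the Llgl proteins) marks the basolateral side, and atypical protein kinase C phosphorylates Llgl proteins to keep them there. Ap1m2 encodes the epithelial mu subunit of the AP-1 clathrin adaptor, which sends proteins to the basolateral membrane. Rab25 encodes an epithelial GTPase of the Rab11 family, which runs apical recycling endosomes. Neural progenitors in tissue are polarised cells too, with Par proteins at their apical junctions.

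In the Pax6 line 2 of these genes were at least 2-fold lower than in the EGFP line, and none was at least 2-fold higher. They were Ap1m2, 2.44-fold lower, and Llgl2, the Llgl gene best known from epithelia, 2.08-fold lower. The count of 2 was 1 after scaling by the median, which left Ap1m2, and 0 with normexp background correction followed by quantile normalization, where Ap1m2 differed by -0.33 and Llgl2 by -0.91 in log2 units. With quantile normalization alone it was 2. The other 7 genes above background, among them the core polarity genes Pard3, Prkci, Llgl1, Scrib and Dlg1, lay within 1.5-fold, which 13.7% of all genes did not. Crb3, which encodes the short transmembrane Crumbs protein of mammalian epithelia, did not rise clearly over background in either line. Differences are log2 of the processed signal on the Pax6 array minus that on the EGFP array, after each array was scaled to its 75th percentile (a signal of 854 for EGFP and 991 for Pax6, so an equal gene reads higher on the latter). The error after ± is the scanner software's measurement error, and says nothing of how cultures vary. A gene counts when the software called a probe of it well above background in at least 1 line, and its brightest such probe stands for it. This held for 9 of the 10 genes, each of them in both lines. Over all 19251 genes that counted, 2.43% were at least 2-fold lower on the Pax6 array and 2.35% at least 2-fold higher. At 3-fold, which 0.535% of all genes passed downwards and 0.857% upwards, none of these genes was called. The median difference of the 9 genes was -0.03, against -0.01 over all genes. Spots well above background made up 64.7% in the EGFP line and 67.2% in the Pax6 line. The split of all genes past 2-fold was 467 lower and 452 higher, but 370 lower and 538 higher after scaling by the median and 109 lower and 176 higher with normexp and quantile normalization.

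**Figure D1:**
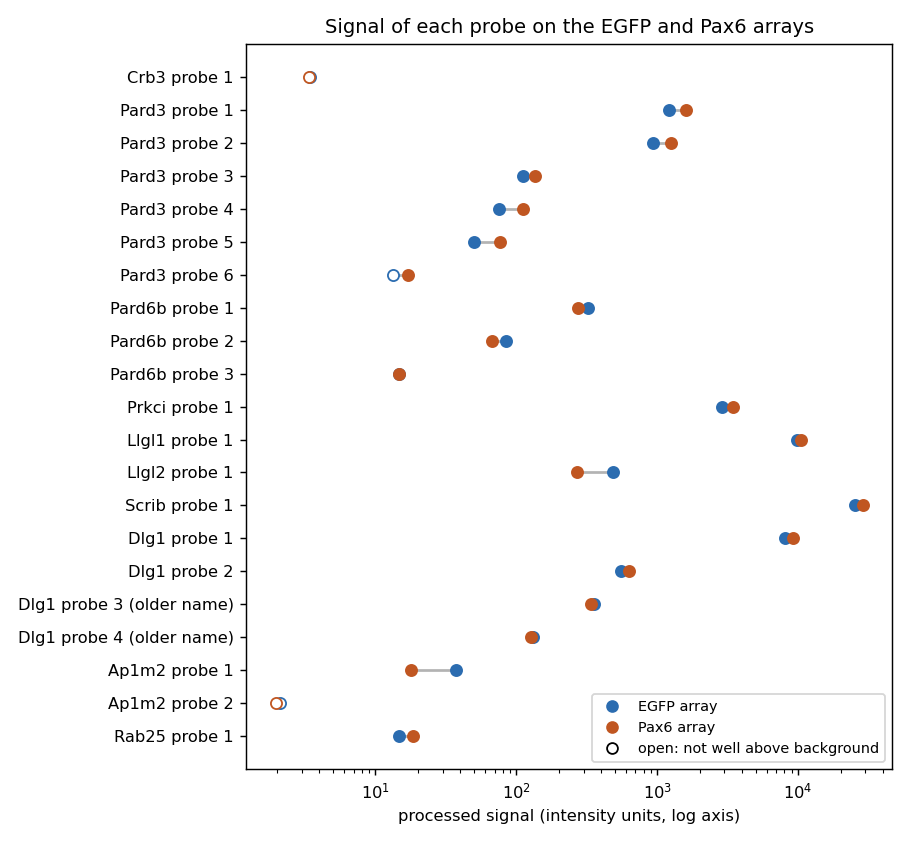
Processed signal (intensity units, log axis, not scaled between arrays) of each of the 19 probes, and of 2 probes under an older name of Dlg1, on the EGFP array (blue) and the Pax6 array (orange), where open points did not clear background. Ap1m2 (37.6 and 17.9) and Llgl2 (483 and 269) show the widest gaps with the Pax6 point to the left.

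Pax6 itself, the gene this line is labelled as overexpressing, read 557 and 822, a difference of 0.35 ± 0.20 or 1.27-fold, and its second probe differed by 0.26. Whether these probes lie in the transgene's part of Pax6 was not tested, so the label rests on the submitters' description. Genes of epithelial identity differed between the lines. Of 11 markers of simple epithelia, a list chosen with these results known, 10 were at least 2-fold lower on the Pax6 array. They include Cdh1, the E-cadherin gene, at -3.40 ± 0.21. Cdh1 differed by -2.53 with normexp and quantile normalization, where the claudin genes Cldn3 (-0.68) and Cldn6 (-0.77) were within 2-fold. Of 8 neural progenitor markers 7 were above background. Nes was 3.17-fold lower and Slc1a3 12.9-fold lower on the Pax6 array, Sox2 was 3.34-fold higher, and Olig2 did not clear background. Slc1a3 differed by -3.69 with its brightest probe, but by -1.79 with its other probe above background on both arrays. With normexp and quantile normalization Slc1a3 differed by -2.18. Doxycycline also makes both lines express Sox2, and the part of that induced Sox2 in this reading was not tested. Of 6 endothelial and blood markers 4, including Pecam1 and Ptprc, did not clear it in either line. Of 14 mesenchymal and fibroblast markers, all above background on at least 1 array, 4 were at least 2-fold lower, such as Twist2 at 16.1-fold and Col1a1 at 5.03-fold. The other Col1a1 probe above background on both arrays differed by -1.28. Thy1, among the 4, cleared background on the EGFP array only (35.2 and 8.20), and differed by -0.45 with normexp and quantile normalization. In the same list 3 were at least 2-fold higher, namely Dcn at 7.71-fold, Col3a1 at 3.80-fold and Zeb1 at 2.04-fold. Of 7 pluripotent markers 1, Zfp42, was at least 2-fold lower, at 2.81-fold, and none was at least 2-fold higher. With normexp and quantile normalization Zfp42 differed by -0.81, within 2-fold. Pou5f1, the gene of Oct3/4 (signals of 7.99 and 14.3), and Esrrb (8.34 and 17.4) cleared background on the Pax6 array only. The Oct3/4 that doxycycline induces was thus not clearly seen here, and whether this probe reads the induced copy was not tested. Tdgf1 (12.4 and 14.3) and Nanog (25.0 and 16.6) were dim, so this list says little. In whole-culture RNA, fewer epithelial cells and less epithelial RNA per cell cannot be told apart, and the part these markers play in the values of Ap1m2 and Llgl2 was not tested.

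The promoters of 4 of these genes, those with at least 2 matches at their first annotated start, are shown for the short E-box to which the repressors Zeb1 and Snail bind in epithelial genes. The motif searched was CAGGTG on both strands, which reads CACCTG where it lies on the strand opposite the gene. The sequences run from 250 bases before the gene start to the base before it, on the gene's own strand, from RefSeq on GRCm38.p6. They lie at chr17:57061951-57062200 (plus strand) for Crb3, chr2:168080754-168081003 (plus) for Pard6b, chr9:21312334-21312583 (minus) for Ap1m2 and chr3:88548280-88548529 (minus) for Rab25. Capitals mark the E-box and, in Rab25, also 1 match to AACCNGTT, the motif of Grainyhead-like factors.
Crb3: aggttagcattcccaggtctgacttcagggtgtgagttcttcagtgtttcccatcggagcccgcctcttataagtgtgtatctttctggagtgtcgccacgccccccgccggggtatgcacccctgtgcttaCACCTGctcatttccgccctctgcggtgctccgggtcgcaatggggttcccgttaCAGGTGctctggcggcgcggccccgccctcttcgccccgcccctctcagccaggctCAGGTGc
Pard6b: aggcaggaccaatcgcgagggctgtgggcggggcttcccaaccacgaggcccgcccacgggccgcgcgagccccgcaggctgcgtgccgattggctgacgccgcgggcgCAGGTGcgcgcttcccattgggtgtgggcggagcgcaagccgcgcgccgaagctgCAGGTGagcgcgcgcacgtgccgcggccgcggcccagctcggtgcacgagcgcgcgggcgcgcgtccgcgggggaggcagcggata
Ap1m2: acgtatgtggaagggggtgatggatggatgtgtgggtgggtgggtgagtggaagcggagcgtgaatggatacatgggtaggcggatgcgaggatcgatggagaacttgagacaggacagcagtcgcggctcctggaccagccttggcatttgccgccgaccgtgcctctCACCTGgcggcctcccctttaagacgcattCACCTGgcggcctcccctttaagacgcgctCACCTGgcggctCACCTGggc
Rab25: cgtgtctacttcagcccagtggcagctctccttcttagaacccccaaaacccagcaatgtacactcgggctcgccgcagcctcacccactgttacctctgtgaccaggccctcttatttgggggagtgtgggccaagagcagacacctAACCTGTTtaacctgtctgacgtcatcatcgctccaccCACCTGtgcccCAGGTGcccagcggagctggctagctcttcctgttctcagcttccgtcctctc

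Ap1m2 held 4 E-boxes, starting at positions -81, -51, -21 and -9 from the gene start. The first 2 lie in copies of a run of 28 bases, 30 bases apart, and the third follows after another 30 bases. Crb3 held 4 in each of its 2 annotated start windows, 1 of them after the start of the first window. Pard6b and Rab25 held 2 each. Pard3 held 3 at its second annotated start and 0 at its first, and Dlg1 held 1 over 4 starts. Prkci and Llgl1 held none in this window. Windows were found for 8 of the 10 genes, and Llgl2 and Scrib are named only. Over all 32851 promoter windows of 300 bases in the table, 20.2% held at least 1 match, 2.88% at least 2 and 0.0548% at least 4. Rab25 held the only match to the Grainyhead-like motif among these genes, which 2.09% of all windows hold, and it overlapped no E-box. A match is a run of letters and not a bound site. On these arrays Zeb1 was 2.04-fold higher in the Pax6 line (signals of 657 and 1556). Its relative Zeb2 differed by 0.01 ± 0.20, and the Snail genes Snai1 and Snai2 by 0.06 ± 0.20 and -0.22 ± 0.20. Grhl2, a Grainyhead-like gene of epithelia, differed by -0.23 ± 0.26. Of the genes whose promoters are shown, Ap1m2 differed by -1.28 (-0.33 with normexp and quantile normalization), Pard6b by -0.45 and Rab25 by 0.13 ± 0.34. Crb3 was not above background. Pard3, with 3 matches at its second start, differed by 0.19 ± 0.20. Whether these matches, or the level of Zeb1, bear on any of these values was not tested.

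**Figure D2:**
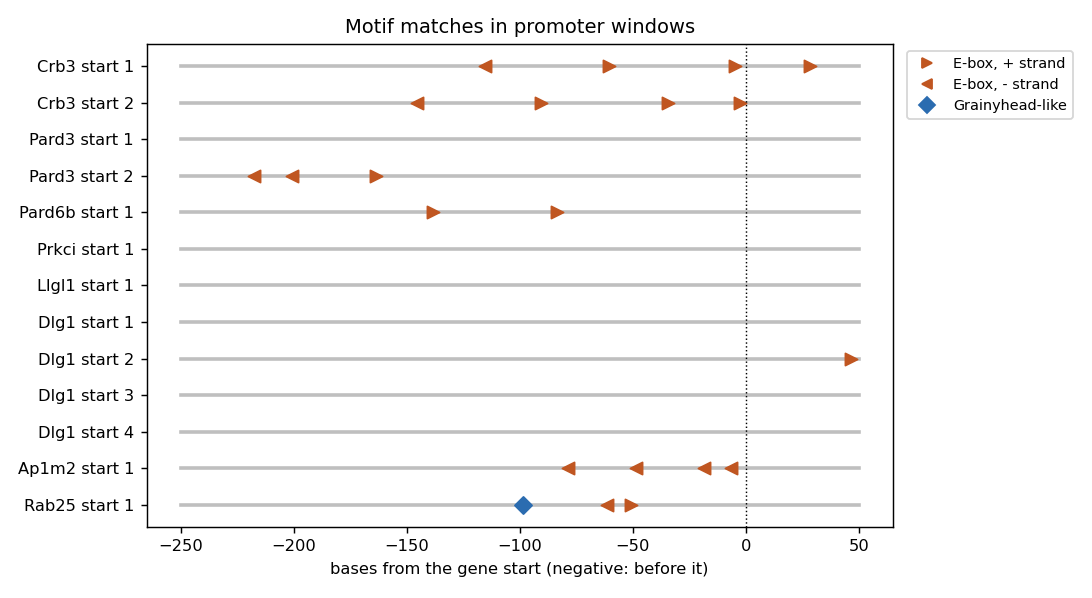
Position of E-box matches (orange, pointing along the strand) and of the Grainyhead-like match (blue) in each annotated promoter window, in bases from the gene start. Ap1m2 has 4 E-boxes between -81 and its start, and each Crb3 window has 4.

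The Crumbs complex could be read only through its adaptors. The single probe of Crb3 (chromosome 17, 55276994 to 55277053 on mm7, the build of the array design) gave signals of 3.44 for EGFP and 3.35 for Pax6, with errors of 3.43 and 3.18. Both signals are about as large as their error, so no fold is given and a difference was not detectable. Patj, the multi-PDZ scaffold that links Crumbs to tight junction proteins, was 2.06-fold lower, with signals of 312 and 176 and a difference of -1.05 ± 0.20. Its other probes differed by -1.16 and -0.68, so all 3 were lower on the Pax6 array. After scaling by the median Patj differed by -0.96, and with normexp and quantile normalization by -0.83, both within 2-fold. Lin7a, a small PDZ adaptor of the same complex, went the other way. Its brightest probe read 950 and 2087, a difference of 0.92 ± 0.20, and its other 3 probes above background differed by 0.32 to 0.97. Of 11 further Crumbs complex genes 9 were above background, with a median of -0.07. By their brightest probes 1 was at least 2-fold lower (Patj) and 0 at least 2-fold higher. The probes of Amotl1 disagreed in sign. Its brightest differed by -0.13 ± 0.20, and its dimmer one (signals of 45.5 and 110) by 1.05 ± 0.23, or 0.57 with normexp and quantile normalization.

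The Par complex held 3 members with opposite small differences. Pard3, the scaffold that places the complex at junctions, read 1219 in the EGFP line and 1611 in the Pax6 line with its brightest probe (chromosome 8, 126219927 to 126219986), a difference of 0.19 ± 0.20. All 5 Pard3 probes above background on both arrays were slightly higher in the Pax6 line, from 0.06 to 0.40. The probes named for transcript variants 1, 2 and 3 differed by 0.34 ± 0.21, 0.22 ± 0.20 and 0.40 ± 0.22. The remaining Pard3 probe cleared background in the Pax6 line only, with signals of 13.3 and 16.9 and a difference of 0.14 ± 0.42. Taken as a bound, this is smaller than its error and so is no firm lower limit. Of these differences each is under 2 times its error, and all share a sign.

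Pard6b, the adaptor that ties Pard3 to the kinase and to Cdc42, was lower in the Pax6 line with each of its 3 probes. The brightest (chromosome 2, 167893366 to 167893425) read 322 and 273, a difference of -0.45 ± 0.20 or 1.37-fold. The next read 83.9 and 67.7, a difference of -0.52 ± 0.21, and the dimmest read 14.7 and 14.6, a difference of -0.22 ± 0.37. The first 2 exceeded 2 times their error and none reached 2-fold. Its paralogues showed no such lowering, with Pard6a at 0.00 ± 0.20 and Pard6g at 0.22 ± 0.20. These paralogues, and those of the other members below, were chosen after their values were seen.

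Prkci, the atypical protein kinase C iota that acts in the Par complex of most epithelia, was equal within error. Its probe (chromosome 3, 30864042 to 30864101) read 2894 and 3458, a difference of 0.04 ± 0.20. Prkcz, the gene of the zeta form, was 2.45-fold lower in the Pax6 line. The 3 probes of Prkcz read 743 and 352, 131 and 61.6, and 83.4 and 29.1, with differences of -1.29 ± 0.20, -1.30 ± 0.21 and -1.73 ± 0.23. Prkcz therefore differed by at least 2-fold on every probe as reported. Its gene value stayed between -1.44 and -1.12 under every alternative scaling, background correction, filter and probe rule. With normexp and quantile normalization its 2 dimmer probes each differed by -0.76, within 2-fold. Of 18 further Par complex genes and partners 17 were above background, 1 was at least 2-fold lower (Prkcz) and 0 were higher, with a median of 0.02. The next in size measured on both arrays was the Rac activator Tiam1 at -0.28 ± 0.20. Pard3b, seen on the Pax6 array only with dim signals of 4.34 and 21.9, was bounded at 1.82-fold higher. That bound is uncertain, since the log2 difference had an error of 1.08. With normexp and quantile normalization Pard3b differed by 0.17.

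**Figure D3:**
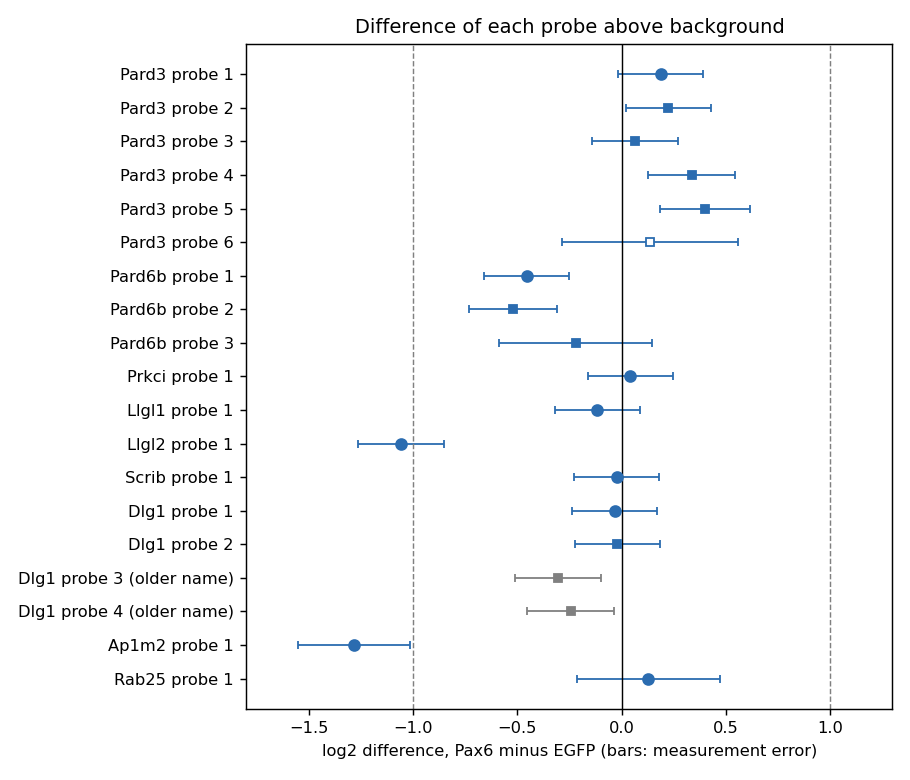
Log2 difference (Pax6 minus EGFP) of each probe above background, with its measurement error as bars. Circles are the probes that stand for a gene, squares its other probes, the open square a bound, grey the older-name probes of Dlg1, and dashed lines mark 2-fold. Llgl2 and Ap1m2 are the only probes left of the lower line, all Pard3 probes lie right of 0 and all Pard6b probes left of it.

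In the Scribble complex only Llgl2 differed by 2-fold. Llgl2 (chromosome 11, 115964296 to 115964567) read 483 in the EGFP line and 269 in the Pax6 line, a difference of -1.06 ± 0.20. The coordinates of its probe span 272 bases, more than the 60 of most probes here, as when a probe crosses a splice junction. Its difference lies just past the 2-fold line. It was -0.98 after scaling by the median and -0.91 with normexp and quantile normalization, so the count at 2-fold loses it there while the size hardly moves. Among all genes 2.09% had a difference as low, and of 1490 genes of similar level (within 0.5 log2 units) 2.62% were at least 2-fold lower.

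Llgl1, the other mammalian Llgl gene, did not follow. It read 9765 and 10457 (chromosome 11, 60795456 to 60795516), a difference of -0.12 ± 0.20, and stayed between -0.15 and -0.03 under every alternative tried. Scrib, the large scaffold of the complex, read 25345 and 28930.5 (chromosome 15, 76129738 to 76129797), a difference of -0.02 ± 0.20. Dlg1, a membrane-associated guanylate kinase scaffold, read 8081 and 9160 with its brightest probe (chromosome 16, 31547789 to 31547848), a difference of -0.03 ± 0.20, and its second probe differed by -0.02. The sign of such values follows the scaling, between -0.07 and 0.06 for Scrib and between -0.06 and 0.05 for Dlg1. A further 2 probes carry the older name Dlgh1 and an accession that no longer matches a gene. They lie over 80 kb before the others in coordinate order and differed by -0.31 ± 0.20 and -0.24 ± 0.21. Of 12 further Scribble complex genes and partners 10 were above background and 0 differed by 2-fold, with a median of 0.00. The largest measured differences were those of Dlg5, a Dlg family scaffold, at -0.31 ± 0.20 and of the planar polarity gene Vangl2 at -0.29 ± 0.20, whose probes disagreed in sign (-0.29 to 0.26).

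Of the epithelial sorting genes, Ap1m2 was lower and Rab25 was not. The main Ap1m2 probe (chromosome 9, 21174864 to 21175876, a span of 1013 bases) read 37.6 ± 4.28 for EGFP and 17.9 ± 2.63 for Pax6. That is a difference of -1.28 ± 0.27, lower than all but 1.16% of genes. Both readings are dim. They are 3.63 and 1.92 times the lowest signal called well above background on their array. Before background subtraction the spot read 91.5 and 72.3 over a local background of 31 on each. With normexp, which adds an offset of 50 to every signal, and quantile normalization its difference was -0.33, and with quantile normalization alone it was -1.22. Of 1816 genes of similar level, 4.30% were at least 2-fold lower. The second Ap1m2 probe read 2.09 and 1.96, not above background, and gives no value.

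Rab25 (chromosome 3, 88656153 to 88656542, a span of 390 bases) read 14.7 ± 2.69 for EGFP and 18.6 ± 2.82 for Pax6, a difference of 0.13 ± 0.34. The difference is smaller than its error, and the readings are 1.42 and 2.00 times the lowest signal called well above background. The sign of the difference depends on the processing, from -0.02 to 0.24. A difference smaller than the error of 0.34 was not detectable at this signal.

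The other AP-1 subunit genes were within 2-fold. Ap1m1, which encodes the mu subunit that all cells carry, read 6122 and 7249, a difference of 0.03 ± 0.20. Of the 7 further AP-1 subunit genes all were above background and 0 passed 2-fold, with a median of 0.04. The largest differences were those of the sigma subunit gene Ap1s3 (-0.74 ± 0.20, and -1.16 ± 0.26 with its dimmer probe) and of the gamma subunit gene Ap1g2 (-0.45 ± 0.20). Ap1s3 differed by -0.95 with the mean or the median of its probes. The other 4 lay between 0.04 and 0.13 by their brightest probes, though those of the gamma subunit gene Ap1g1 disagreed in sign (-0.27 to 0.98).

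**Figure D4:**
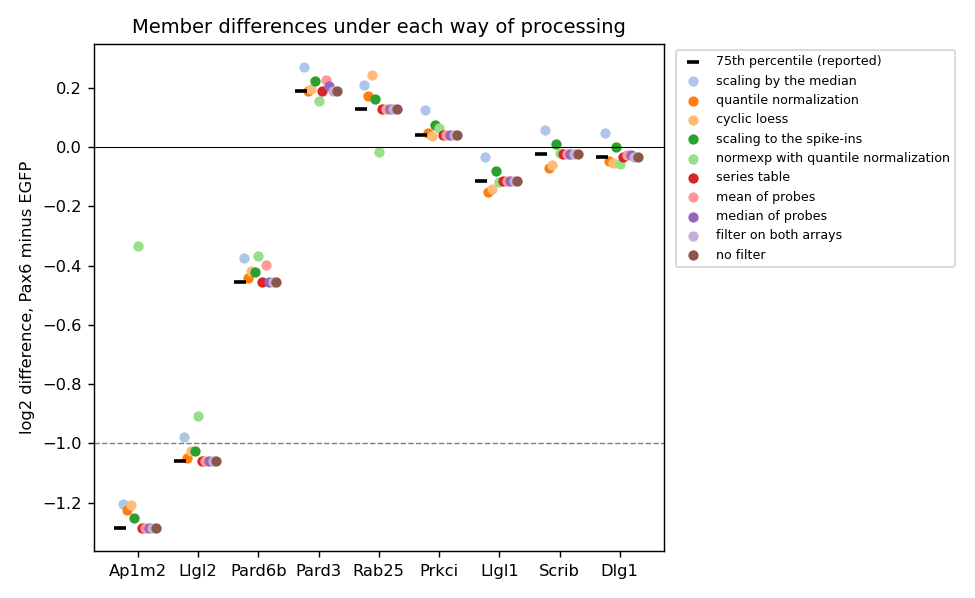
Log2 difference (Pax6 minus EGFP) of each of the 9 genes above background as reported (black bars) and under each other way of processing (coloured points), with 2-fold lower dashed. Ap1m2 spreads from -1.28 to -0.33 and Llgl2 from -1.06 to -0.91, while Pard6b stays below 0 and Pard3 above it.

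Genes of the Rab11 family and of apical recycling were close to equal as a group. Of 25 genes 23 were above background, 1 was at least 2-fold lower, 0 were higher, and the median was -0.13. The ubiquitous relatives of Rab25, Rab11a and Rab11b, differed by -0.19 ± 0.20 and 0.05 ± 0.20. Rab11fip4, the gene of a Rab11 effector, was 2.18-fold lower at signals of 33.6 and 17.9 (-1.13 ± 0.32), but differed by -0.10 with normexp and quantile normalization, and its second probe was below background. Stxbp2, which encodes the Munc18-2 partner of apical syntaxin 3, was just short of the line at -0.96 ± 0.20, with signals of 628 and 374. Beyond these, the list ran from the epithelial transport gene Mal2 at -0.70 ± 0.24, with dim signals of 42.8 and 30.5, to Rab3ip at 0.50 ± 0.20, with signals of 11317 and 18587. Rab3ip encodes an exchange factor for Rab8, and its second probe differed by 0.75. With normexp and quantile normalization Mal2 differed by -0.24. Both were named after their values were seen. Of 7 apical cortex genes all were above background and 0 differed by 2-fold, with a median of 0.09. Cgn, the tight junction gene cingulin, was lowest at -0.47 ± 0.25, with dim signals of 40.0 and 33.5. It was followed by the sialomucin gene Podxl at -0.40 ± 0.20. The Cgn probes above background differed by -0.10 and -0.24 with normexp and quantile normalization, and Podxl by -0.41.

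Over the 80 partner genes of these lists 73 were above background. Of these, 3 (Prkcz, Patj and Rab11fip4) were at least 2-fold lower, or 4.11%, against 2.43% of all genes, and 0 were at least 2-fold higher. Their median was 0.02. At 1.5-fold, 8 were lower, or 11.0% against 7.76% of all genes, and 2 were higher, or 2.74% against 5.91%. Of the 8, 4 were in the list of the Rab11 family and apical recycling, or 17.4% of its 23 genes above background. The Crumbs list held 2 (22.2% of 9), the Par list 1 (5.88% of 17) and the AP-1 list 1 (14.3% of 7). The Scribble and apical cortex lists held 0. In the Rab11 list the dim genes Rab11fip4, Mal2 and Rab17 differed by -0.10, -0.24 and -0.19 with normexp and quantile normalization, and the brighter Stxbp2 by -0.88.

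**Figure D5:**
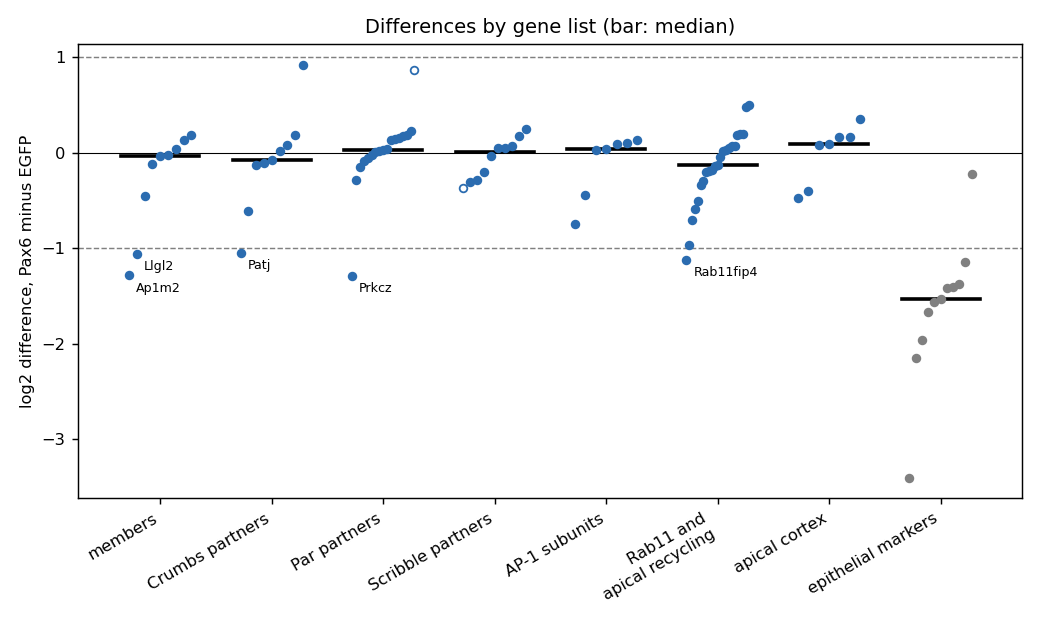
Log2 difference (Pax6 minus EGFP) of each gene above background by list, with open points for bounds, black bars for medians and dashed lines at 2-fold. The medians of the polarity and sorting lists lie between -0.13 and 0.09, and the grey epithelial markers, chosen with their values known, have a median of -1.54.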

How the data were processed

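Total RNA of both lines was labelled with Cy3 and hybridised to 1 array each, per the labels' protocols. Spots were quantified by the authors in Agilent's Feature Extraction (version 10.7.3.1, per the file headers). Its processed signals are the deposited intensity values, from which the software had taken background and spatial trend. No step between the arrays had been applied. The series table repeats these deposited intensities. The deposited flags (unit other) mark spots well above background, saturated spots, outliers and surrogate values. Outlier spots on either array were left out. Signals were put on the log2 scale, each array's 75th percentile was subtracted, and replicate spots were averaged. No probe of the members had replicate spots. A gene took its brightest probe. Where 1 array was below background, the difference is a bound against the dim probe's own signal or, if higher, the lowest signal well above background. Accessions matched current symbols for 55.7% of probes, and older names were kept otherwise.

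The members, lists and rules were chosen with earlier results of these data known. Named were all members, partner genes past 2-fold, and the next largest of each list up to 2. Alternatives were 4 other scalings, normexp correction together with quantile normalization (limma 3.58.1), the series table, the probe rule, the filter and the fold rule, extended to the partner genes once the data had been seen. Scaling and calls were first tested on simulated data. RefSeq promoters follow the gene's strand, as checked on 1907 overlapping windows of opposite strands.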

Additional observations from a re-analysis of the deposited data

How the results depend on the processing

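The count of members at least 2-fold lower was 2 under quantile normalization, cyclic loess, scaling to the spike-ins, the series table, the mean or median of probes, both filters, and the rules of 1.5-fold and of 2 times the error. It was 1 after scaling by the median, which left Ap1m2, and 0 with normexp and quantile normalization together and at 3-fold. No member was at least 2-fold higher under any of these. For the differences of the 9 members, 89 of 90 values under the alternatives stayed within the measurement error of the reported one. Many of these could not move. The series table and both filters return the reported values of these genes unchanged, as do the probe rules where a gene has only 1 usable probe. The share within error is therefore no measure of how firm the values are. The exception was Ap1m2 with normexp and quantile normalization (-0.33), where the offset of 50 exceeds both its signals. Partner genes at least 2-fold lower numbered 3, but 2 after scaling by the median and with the mean of probes, 4 without a filter on dim probes, 1 with normexp and quantile normalization (Prkcz), 0 at 3-fold and 8 at 1.5-fold. Those at least 2-fold higher numbered 1 after scaling by the median (Lin7a), 1 after cyclic loess (Pard3b, a bound), 3 without a filter on dim probes, and 2 at 1.5-fold. Patj was within 2-fold at -0.96 with the mean of its probes. No paired analysis was possible because each line has 1 array and no test was made. Dim signal limits Ap1m2, Rab25 and Crb3 most.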

Other observations

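Some pairs of close relatives gave unlike values on these arrays, and other pairs like ones. In the Pax6 line Prkcz differed by -1.29 and Prkci by 0.04, Llgl2 by -1.06 and Llgl1 by -0.12, and Ap1m2 by -1.28 and Ap1m1 by 0.03 in log2 units. With normexp and quantile normalization Ap1m2 differed by -0.33 and Ap1m1 by -0.03. Pairs with like values were Rab11a (-0.19) and Rab11b (0.05), Dlg1 (-0.03) and Dlg3 (0.07), and Pard6a (0.00) and Pard6g (0.22). The same families also held Pard6b at -0.45 and Dlg5 at -0.31, so these pairs do not stand for their families. These sets were chosen after their values were seen, and with 1 array per line no difference between relatives was tested.

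In the RefSeq promoter table, 18 of 32851 windows, of 17 genes, held at least 4 E-boxes of the searched letters. Ap1m2 and Crb3 account for 3 of the 18, because Crb3 has overlapping windows at 2 starts. Of the 2, Crb3 gave no readable signal in either line, so these arrays do not show how it compares.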
